A study of Rattus norvegicus with 22 samples.

Results

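Major histocompatibility complex (MHC) class II presentation was examined in the rat hippocampus through 8 genes: RT1-Ba and RT1-Bb (the alpha and beta chains of the RT1-B molecule), RT1-Da and RT1-Db1 (those of RT1-D), RT1-DMa and RT1-DMb (the chains of the peptide exchange factor), Cd74 (the invariant chain) and Ciita (the class II transactivator). These genes were chosen by name, with earlier results of these data known. The count table also lists other class II genes, RT1-Db2, RT1-DOa, RT1-DOb and RT1-Ha, which are given apart. The members were 8 of the 17172 genes in that table, and 6 of the 8 had counts and were among the 12875 genes that entered the test. Class II molecules are the surface proteins that show peptides from engulfed material to CD4+ T cells; the invariant chain holds a newly made pair and takes it to the endosome, where the peptide exchange factor loads the peptide. In the brain, microglia and the macrophages of the meninges and vessels are the cells best known for making them, at low levels in the resting state and at higher levels after injury. Ciita, which interferon gamma is known to induce, is the coactivator that sits on the shared promoter factors of the whole set.

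RNA-seq was run on bulk ipsilateral (right) hippocampus of adult male Sprague-Dawley rats, 1 sample per rat. TBI rats received a lateral fluid percussion (LFP) injury, a pressure pulse to the exposed dura, set to a moderate severity. Sham rats had the craniectomy and the anesthesia without the pulse, so the surgery is common to all 14 samples. There were 2 sham and 4 TBI samples at day 1, and 4 sham and 4 TBI samples at day 14, with 15065540 to 23743703 counts per sample; levels below are CPM, a sample's counts scaled to its library size. In 3 samples, sham day 1 replicate 1 and TBI day 14 replicates 2 and 3, choroid plexus markers stood apart: their mean log2 CPM was 7.33, 4.56 and 6.52, and the summed level of the 15 listed markers ranged from 229 to 11320 CPM in sham day 1 and from 216 to 8826 CPM in TBI day 14, against 128 to 157 CPM in TBI day 1 and 160.4 to 255 CPM in sham day 14. The same sham day 1 replicate also held more class II RNA than the other sham of that day, by 1.82 times for Cd74 and 3.93 times for RT1-Db1. The part of choroid plexus tissue in the class II results was not tested, and calls that changed without those samples are given beside the results.

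The chain genes of RT1-D and RT1-B sit side by side on chromosome 20, and RT1-DMa and RT1-DMb lie farther along, with other genes between. The promoters of 5 members and of RT1-Db2 are shown because they share letters of the classical site through which Ciita acts on class II genes. The Cd74 promoter lacked these letters and is not shown. The promoter table of RefSeq (assembly GRCr8, 300 bases around each gene's start) held 6 of the 8 members and not RT1-DMb or Ciita. Each stretch has 65 bases, reads 5′ to 3′ on the strand of its gene, and has in capitals the letters GATTGG, the core of the Y box, which the factor NF-Y is known to bind.
RT1-Da, chr20:4515320-4515384, plus strand: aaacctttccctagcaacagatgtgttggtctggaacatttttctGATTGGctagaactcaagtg
RT1-Db1, chr20:4560224-4560288, minus strand: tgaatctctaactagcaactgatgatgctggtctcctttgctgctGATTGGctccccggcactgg
RT1-Db2, chr20:4541694-4541758, minus strand: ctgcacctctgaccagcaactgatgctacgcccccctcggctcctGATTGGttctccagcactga
RT1-Ba, chr20:4576968-4577032, plus strand: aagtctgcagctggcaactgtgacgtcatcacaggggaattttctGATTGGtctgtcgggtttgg
RT1-Bb, chr20:4604161-4604225, minus strand: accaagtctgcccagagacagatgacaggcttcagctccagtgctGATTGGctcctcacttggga
RT1-DMa, chr20:4712381-4712445, minus strand: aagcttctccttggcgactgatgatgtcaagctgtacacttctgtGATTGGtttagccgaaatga

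The longer form CTGATTGG, searched on both strands, was in 6 of the 9 class II promoters looked at (RT1-Da, RT1-Db1, RT1-Db2, RT1-Ba, RT1-Bb and RT1-DOa), against 3.5% of all 33469 promoters in the table. GATTGG alone, which the longer form contains, was in 8 of the 9, all but Cd74, against 14.8% of all. The letters CAACNGATG, a form of the X box that the RFX factors are known to bind, were in RT1-Da, RT1-Db1, RT1-Db2 and RT1-DOb, against 0.586% of all promoters; in RT1-Da they ended 22 bases before the Y box core, in RT1-Db1 21 and in RT1-Db2 20. The motif forms were chosen with these promoters in view. A match is a match of letters and not a measured binding site, and RT1-DMa carries the Y box core although no read was counted for it.

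One day after TBI, 5 of the 6 tested members had higher counts than sham: RT1-Ba, RT1-Da, RT1-Db1, Cd74 and Ciita. None of the 6 was lower. Over all genes, 11.2% were higher and 7.93% lower in this comparison (edgeR's quasi-likelihood test, Benjamini-Hochberg adjusted p under 0.05). The median log2 fold change of the tested members was 2.96, and that of all tested genes was -0.02. At day 14 the same 5 genes were higher, against 4.07% of all genes, with a median of 4.11 for the tested members and -0.03 for all genes. RT1-Bb did not pass the test on either day.

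**Figure D1:**
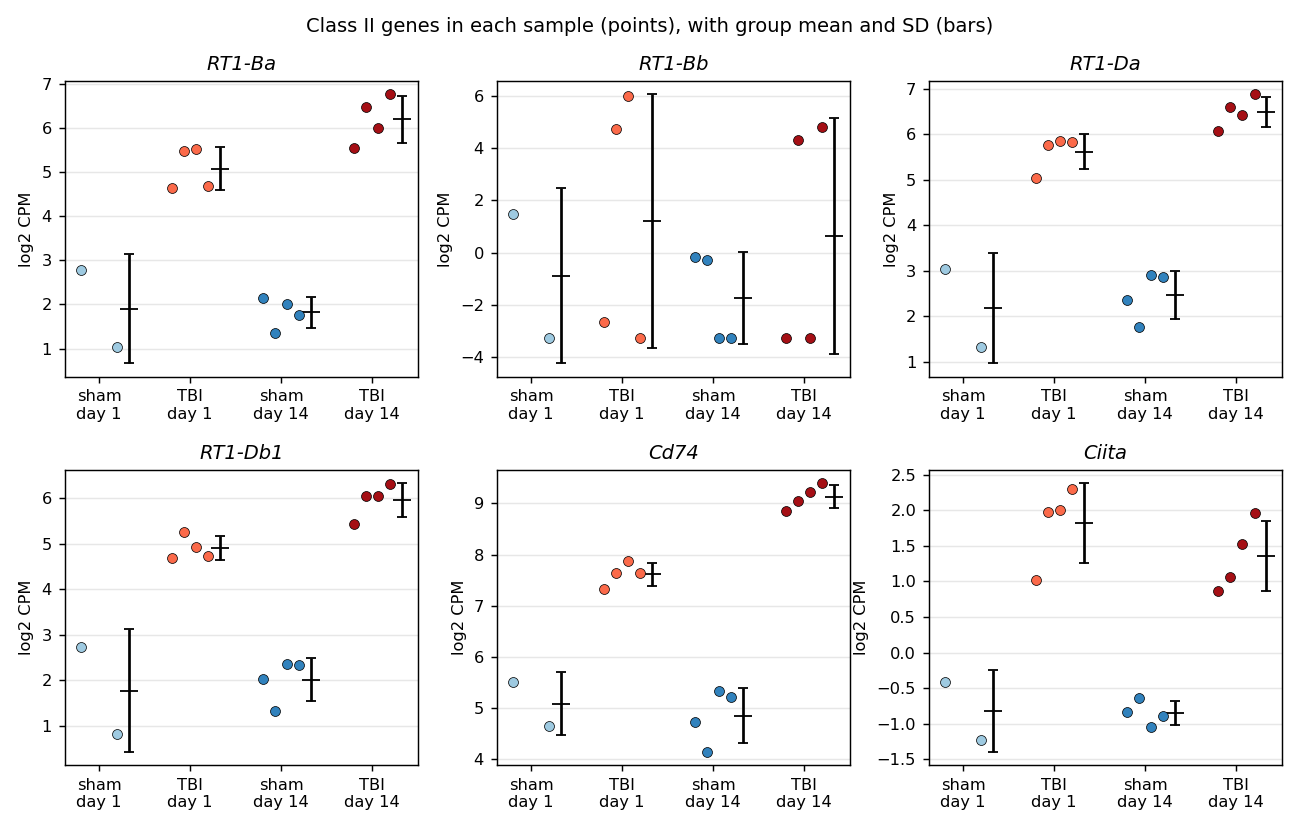
Level of the 6 class II genes with counts in each sample, as log2 CPM with a prior count of 2; points are samples, and the bar beside each group is its mean and SD. In every panel except RT1-Bb, all TBI samples lie above all sham samples of the same day, and RT1-Bb samples without counts sit at -3.26. The share of all tested genes that separate in this way is not given, and the samples of day 1 allow only 15 arrangements.

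Cd74, the invariant chain, was at 45.6 and 25.0 CPM in the sham samples of day 1 and at 160.2, 198, 234 and 199.9 CPM in the TBI samples of that day. At day 14 the sham samples held 26.3, 17.5, 40.03 and 36.8 CPM and the TBI samples 464, 530.1, 598 and 674 CPM. No TBI sample overlapped with a sham sample, and every TBI sample of day 14 was above every TBI sample of day 1. Cd74 was 5.62-fold higher in TBI than in sham at day 1 (log2 fold change 2.49, SE 0.33, edgeR adjusted p = 0.000156) and 18.8-fold higher at day 14 (4.23, SE 0.27, adjusted p = 8.73e-07).

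RT1-Da, the RT1-D alpha chain, had 8.08 and 2.398 CPM in the day 1 sham samples and 32.8, 54.4, 57.7 and 57.0 CPM in the day 1 TBI samples. In the day 14 samples it had 5.05, 3.30, 7.41 and 7.13 CPM after sham surgery and 67.1, 96.7, 85.4 and 117.6 CPM after TBI. The sham samples of both days lay far below the TBI samples, and 1 TBI sample of day 1 was lower than the other three. The log2 fold change was 3.28 at day 1 (SE 0.46, edgeR adjusted p = 0.000227) and 4.00 at day 14 (SE 0.35, adjusted p = 9.39e-06).

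Its partner RT1-Db1, the beta chain, was measured at 6.52 and 1.66 CPM in sham and 25.4, 38.2, 30.3 and 26.3 CPM in TBI at day 1. At day 14 the values were 4.00, 2.403, 4.98 and 4.95 CPM in sham and 42.9, 66.2, 65.6 and 78.8 CPM in TBI. The groups did not overlap on either day, and the spread among the TBI samples was small beside the distance to sham. TBI raised RT1-Db1 by 2.89 on the log2 scale at day 1 (SE 0.45, edgeR adjusted p = 0.000528) and by 3.95 at day 14 (SE 0.35, adjusted p = 9.57e-06).

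RT1-Ba, the RT1-B alpha chain, had 6.79 and 1.94 CPM in sham and 24.7, 44.4, 45.6 and 25.6 CPM in TBI at day 1. At day 14 it had 4.33, 2.46, 3.95 and 3.27 CPM in sham and 46.6, 89.2, 64.0 and 108.3 CPM in TBI. All TBI samples were above all sham samples of their day, with a spread of over 2-fold among the day 14 TBI samples. The log2 fold change was 3.02 at day 1 (SE 0.49, edgeR adjusted p = 0.000761) and 4.46 at day 14 (SE 0.39, adjusted p = 9.39e-06).

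Ciita was the least counted of the 5. Its counts were 12 and 7 in sham and 37, 94, 85 and 108 in TBI at day 1, and 7, 9, 7 and 8 in sham and 26, 34, 56 and 72 in TBI at day 14. On the CPM scale the group means were 0.485 ± 0.229 (SD, n = 2) and 3.62 ± 1.22 (SD, n = 4) at day 1, and 0.453 ± 0.067 (SD, n = 4) and 2.58 ± 0.93 (SD, n = 4) at day 14. The TBI samples stood above the sham samples on both days, and the TBI samples of the days overlapped with each other. Ciita was 7.48-fold higher at day 1 (log2 fold change 2.90, SE 0.49, edgeR adjusted p = 0.00103) and 5.65-fold higher at day 14 (2.50, SE 0.38, adjusted p = 0.000796).

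The size of the day 1 changes rested on which of the 2 sham samples was used. Without sham day 1 replicate 1, the log2 fold changes at day 1 were 2.99 for Cd74, 4.39 for RT1-Da, 4.17 for RT1-Db1, 4.17 for RT1-Ba and 3.46 for Ciita. Without replicate 2 they were 2.12, 2.64, 2.20, 2.37 and 2.47 in the same order. All 5 genes passed the test in both cases. In bulk tissue, more RNA per cell and more cells of the types that make it cannot be told apart, here and in every comparison that follows.

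**Figure D2:**
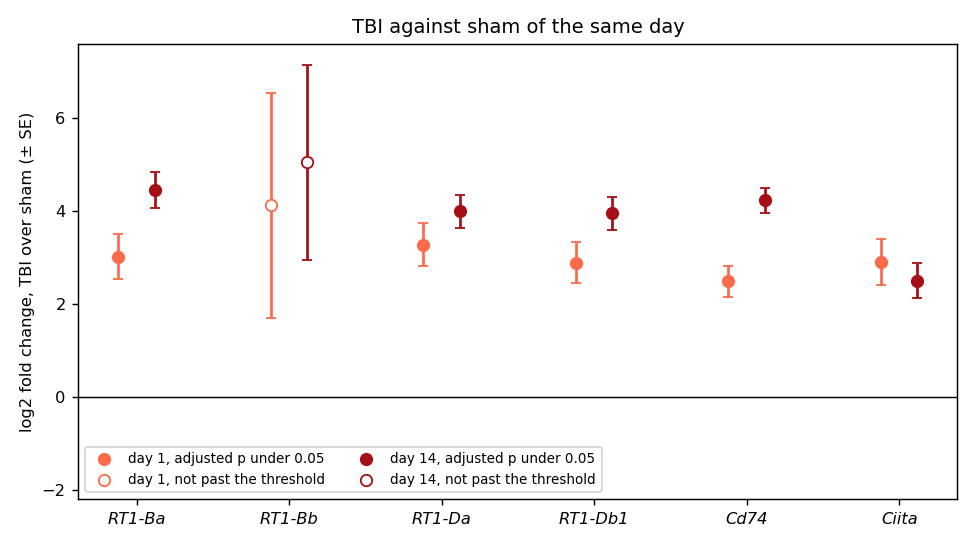
log2 fold change of TBI over sham of the same day for the 6 tested members, with the SE as bars; filled points passed the adjusted p threshold of 0.05. Cd74 goes from 2.49 at day 1 to 4.23 at day 14, Ciita from 2.90 to 2.50, and RT1-Bb has an SE above 2 on both days.

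RT1-Bb, the RT1-B beta chain, gave counts of another kind. It had 50 and 0 counts in the sham samples of day 1, 1, 659, 1410 and 0 in the TBI samples of day 1, 12, 12, 0 and 0 in the sham samples of day 14, and 0, 339, 0 and 532 in the TBI samples of day 14. Counts were 0 or 1 in 7 of the 14 samples, with such samples in each of the 4 groups, and 12 or more in the other 7. Its partner RT1-Ba had 476 and 572 counts in the day 1 TBI samples where RT1-Bb had 1 and 0, and 703 and 1288 in the day 14 TBI samples where it had 0. In the TBI samples with RT1-Bb counts, RT1-Ba had 1095 and 994 counts at day 1 and 1523 and 2051 at day 14, higher on the CPM scale than in the other TBI samples of the same day. With group means subtracted, the r of RT1-Ba and RT1-Bb over the 14 samples was 0.761, and it was 0.484 without. The log2 fold change was 4.12 at day 1 (SE 2.42, edgeR adjusted p = 0.245) and 5.05 at day 14 (SE 2.102, adjusted p = 0.288), so the difference was not detectable against this spread. With sham day 14 as the baseline for day 1, RT1-Bb passed the test (5.98, adjusted p = 0.0315). Without sham day 1 replicate 1 the remaining sham has 0 counts and the fitted value, 11.8, depends on the prior count (adjusted p = 0.201). What sets the 0 counts was not tested.

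RT1-DMa and RT1-DMb were listed at 0 in all 14 samples, and neither could be tested. A count of 0 allows up to 3 counts in a sample, or 0.122 to 0.199 CPM. These zeros stand beside others in the region. In the gene order of GRCr8, Brd2, a chromatin reader that nearly all cells use, lies close to the RT1-DM genes and had 5 counts over all samples, and Tap2, the partner of Tap1 in the class I peptide pump, had 2. Tap1 had 4597 counts, Psmb8 1991 and Psmb9 2836, and Rxrb, farther along, had 28857. The 0 of the RT1-DM genes is therefore given as the value listed in the table and not as a level of expression.

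**Figure D3:**
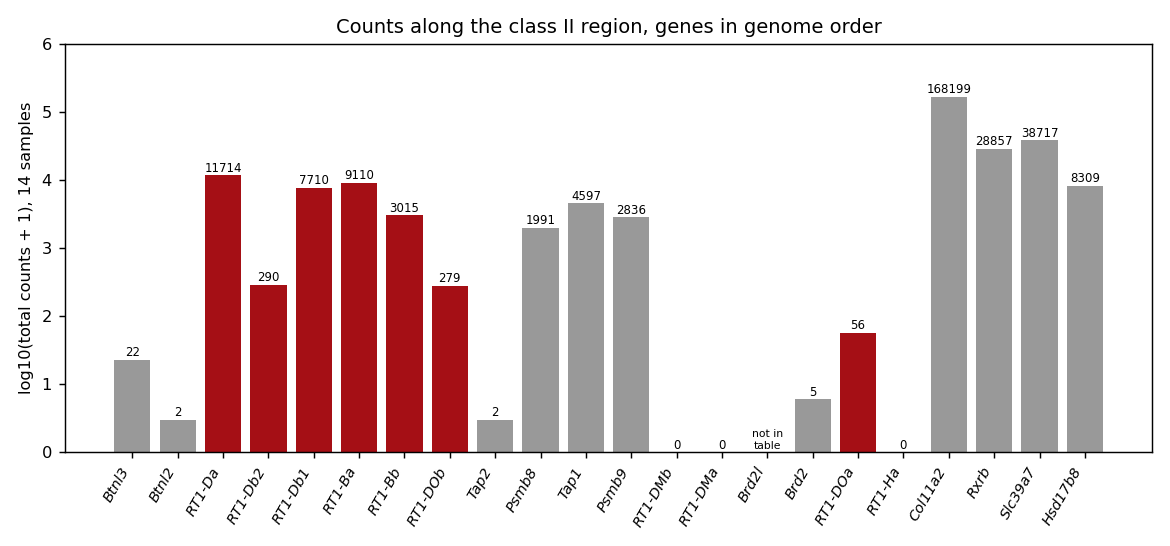
Counts summed over the 14 samples, as log10(counts + 1), for 22 genes in the order they have on chromosome 20 in GRCr8 (not to genomic scale); RT1 genes are red, other genes grey, and the number on each bar is the sum. RT1-DMb, RT1-DMa and RT1-Ha are listed at 0, Tap2 at 2 and Brd2 at 5, between genes with many counts.

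Other class II loci were at low counts. RT1-Db2, a second beta chain gene next to RT1-Db1, had 2 and 0 counts in sham and 9, 25, 33 and 18 in TBI at day 1, and 1, 0, 9 and 7 in sham and 32, 30, 65 and 59 in TBI at day 14. It was higher on both days (log2 fold change 4.08, SE 1.09, edgeR adjusted p = 0.0175 at day 1; 3.37, SE 0.65, adjusted p = 0.00488 at day 14). Without sham day 1 replicate 1 the remaining sham of that day has 0 counts, so no fold is given, and the adjusted p was 0.0233. RT1-DOb, a chain of the modulator of the peptide exchange factor, rose at day 14 (2.65, SE 0.70, adjusted p = 0.0423) and was at 1.53 (SE 0.86, adjusted p = 0.227) at day 1. That day 1 value rested on 1 library. Without sham day 1 replicate 1 RT1-DOb was at 4.43, a fold over the 1 count of the remaining sham. By limma-voom RT1-DOb missed the threshold at day 14 (2.403, adjusted p = 0.119). RT1-DOa had 56 counts over all samples and was not tested, and RT1-Ha was listed at 0. RT1 chain genes of the same kind resemble each other, and how reads that match several genes were counted is not given in the sources used here, so the split of reads between RT1-Db1 and RT1-Db2 is uncertain.

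Whether partner genes moved by the same factor was examined within each sample, through the log2 ratio of their counts, with an exact two-sided permutation test. RT1-Da over RT1-Db1 was 0.40 ± 0.14 (SD, n = 2) in sham and 0.73 ± 0.35 (SD, n = 4) in TBI at day 1 (exact p = 0.2, adjusted over 3 pairs 0.3), and 0.46 ± 0.10 (SD, n = 4) and 0.54 ± 0.11 (SD, n = 4) at day 14 (exact p = 0.371, adjusted 0.371). Cd74 over RT1-Da was 2.90 ± 0.59 (SD, n = 2) in sham and 1.99 ± 0.21 (SD, n = 4) in TBI at day 1, with an exact p of 0.0667, the smallest that 15 arrangements allow, and 0.2 after adjustment. At day 14 the same ratio was 2.37 ± 0.03 (SD, n = 4) in sham and 2.64 ± 0.18 (SD, n = 4) in TBI, higher in 4 of 4 TBI samples (exact p = 0.0286, the smallest that 70 arrangements allow, adjusted 0.0857). No pair passed the adjusted threshold on either day. No pair could pass it at day 1, where the smallest exact p, 0.0667, already lies above it. A single differing pair at day 14 could not go below 0.0857 after adjustment, the value that Cd74 over RT1-Da reached. The lack of a pass therefore does not show that partner genes moved by the same factor. RT1-Ba over RT1-Bb spread from -0.50 to 9.29 among the TBI samples and gave exact p-values of 0.8 at day 1 and 0.343 at day 14.

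The change between the days was examined in 2 ways, which share the TBI samples. In the TBI effect at day 14 minus that at day 1, 1 of the 6 tested members passed, Cd74, against 1.44% of all genes in that direction. Its difference was 1.74 (SE 0.37, edgeR adjusted p = 0.0193). RT1-Ba differed by 1.44 (adjusted p = 0.173), RT1-Db1 by 1.06 (adjusted p = 0.277), RT1-Da by 0.72 (adjusted p = 0.474) and Ciita by -0.40 (adjusted p = 0.747), none past the threshold. The Cd74 call rested on sham day 1 replicate 1, without which it was 1.25 (adjusted p = 0.0844). Without sham day 1 replicate 2, 3 members passed: Cd74, RT1-Ba at 2.09 and RT1-Db1 at 1.75. With the 3 samples high in choroid plexus markers left out, Cd74 was at 1.29 (adjusted p = 0.152).

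Compared directly, TBI day 14 was higher than TBI day 1 for 4 of the 6 tested members, against 17.6% of all genes. Cd74 rose by 1.52 on the log2 scale (SE 0.24, edgeR adjusted p = 0.000241), RT1-Ba by 1.13 (SE 0.33, adjusted p = 0.0141), RT1-Db1 by 1.08 (SE 0.30, adjusted p = 0.0120) and RT1-Da by 0.86 (SE 0.31, adjusted p = 0.0361). Ciita was at -0.49 (adjusted p = 0.252). Without TBI day 14 replicate 4, the highest sample, RT1-Ba (0.92, adjusted p = 0.0528) and RT1-Da (0.72, adjusted p = 0.107) no longer passed. RT1-Da also missed the threshold without TBI day 1 replicate 1 (0.70, adjusted p = 0.0741), without TBI day 1 replicate 2 (0.90, adjusted p = 0.0605) or without TBI day 14 replicate 2 (0.84, adjusted p = 0.0727). Between the sham groups of the 2 days, 0 of the 6 tested members differed by edgeR's test, and 0 at an unadjusted p under 0.05, by limma-voom or by DESeq2, while 19.1% of all genes differed in either direction.

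Cd74 and its regulator Ciita moved apart between the days. The log2 ratio of Cd74 to Ciita was 5.88 ± 0.05 (SD, n = 2) in sham day 1, 5.69 ± 0.71 (SD, n = 4) in sham day 14 and 5.80 ± 0.41 (SD, n = 4) in TBI day 1. In TBI day 14 it was 7.77 ± 0.27 (SD, n = 4). The TBI samples of day 1 lay between 5.34 and 6.32 and those of day 14 between 7.43 and 7.99, without overlap. The difference of 1.98 had an exact permutation p of 0.0286, the smallest that 70 arrangements allow; the pair was chosen after the values were seen.

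**Figure D4:**
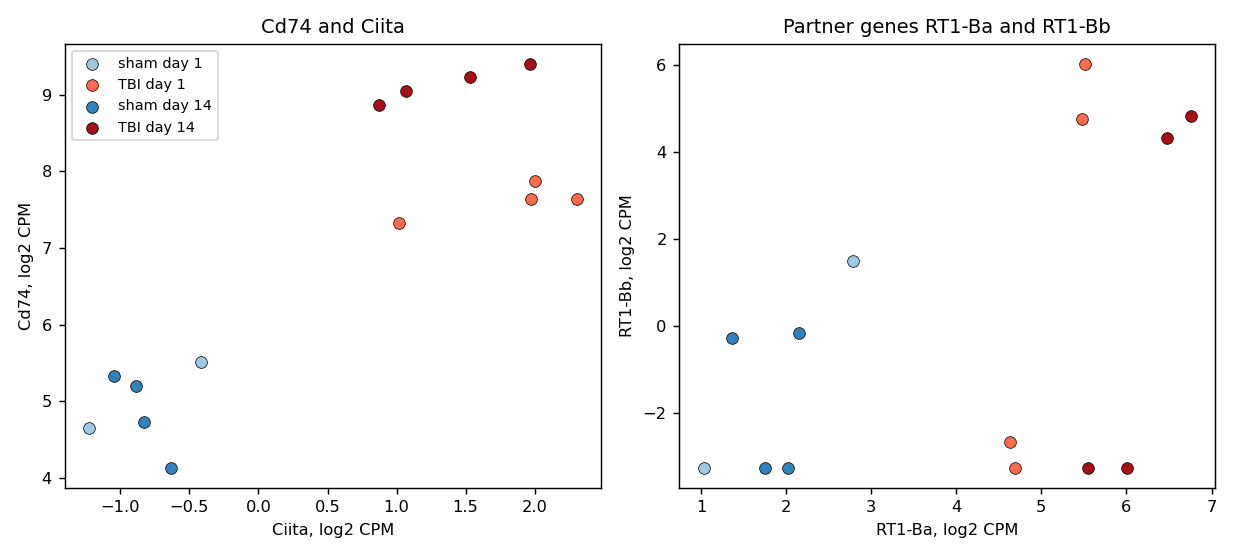
Each point is 1 sample, as log2 CPM: Cd74 against Ciita (left) and RT1-Bb against RT1-Ba (right), with the 4 groups in colour. The TBI day 14 samples lie above the TBI day 1 samples in Cd74 over an overlapping range of Ciita, and RT1-Bb has 0 or 1 counts in 4 TBI samples with RT1-Ba above all sham samples.

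Across the 14 samples, the log2 CPM of the 5 members that were counted throughout (without RT1-Bb) correlated in all 10 gene pairs, with Pearson's r from 0.858 (Cd74 and Ciita) to 0.994 (RT1-Da and RT1-Db1). The step between the groups is part of every such r. With each group's mean subtracted, r ranged from 0.396 (Cd74 and Ciita) to 0.927 (RT1-Da and RT1-Db1). The genes outside the set whose pattern was most like that of Cd74 over the 14 samples were Irf8, a transcription factor of myeloid cells (r = 0.971), Unc93b1, which carries Toll-like receptors to the endosome (0.970), St14, a membrane serine protease (0.969), Ncf1, a subunit of the phagocyte oxidase (0.965), and Dock8, Nckap1l, Timd2, Hmha1, Fgd2 and Cd68, from 0.959 down to 0.949. With the group means subtracted, RT1-Db2 came first (0.930), then Traf3 (0.888), RGD1310371 (0.886), Smagp (0.877) and Desi1 (0.873). These correlations are descriptions over samples that share groups and library depth.

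The genes that work around the class II molecules were taken from lists written with earlier results of these data known. Of the 8 genes of the promoter complex (Rfx5, Rfxap, Rfxank, Nfya, Nfyb, Nfyc, Creb1 and Atf1), Atf1 rose at day 1 (log2 fold change 0.64, SE 0.14, edgeR adjusted p = 0.00676). At day 14, 0 of the 8 passed, also at an unadjusted p under 0.05, by limma-voom and by DESeq2. Rfx5, the DNA-binding subunit, was at -0.05 at day 1 and -0.09 at day 14. The median of the 8 was 0.09 at day 1 and 0.06 at day 14.

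In the interferon gamma list, 8 of 9 genes were tested, and Ifng itself was listed at 0 in all samples. It was among 2170 genes with 0 counts in all samples, and its 0 is given as the listed value and not as a level of expression. At day 1, 5 of the 8 rose, among them Irf8 (1.51), Irf1, a transcription factor that acts on the Ciita gene (1.43), the receptor chain Ifngr1 (0.85) and the kinase Jak2 (0.73). At day 14, 4 of the 8 rose, among them Irf8 by 2.41, Ifngr1 by 0.97 and Irf1 by 0.80, while Jak2 was at 0.02 (edgeR adjusted p = 0.980). The medians of the 8 were 0.79 and 0.56. Jak2 at day 1 missed the threshold without sham day 1 replicate 1 (0.50, adjusted p = 0.0667), and Irf1 at day 14 missed it with the 3 samples high in choroid plexus markers left out (0.93, adjusted p = 0.0776) and by limma-voom (0.79, adjusted p = 0.0916).

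Among genes that make and trim peptides in the endosome, 5 of 9 rose at day 1 and 8 of 9 at day 14, with medians of 0.71 and 1.30. At day 1, 7 of 9 rose without sham day 1 replicate 1, Ctsd (0.95) and Ctsh (0.84) among them, and the same count was reached with all 3 samples high in choroid plexus markers left out. The thiol reductase Ifi30 rose by 2.41 (SE 0.25) and 2.22 (SE 0.19), the legumain gene Lgmn by 1.67 and 1.30, and the cathepsin genes Ctsc by 1.83 and 1.95 and Ctsb by 1.05 and 0.72. Ctss, the protease that cuts the invariant chain from class II molecules, was at 303 ± 107 CPM in sham and 304 ± 77.7 CPM in TBI at day 1 (SD, n = 2 and 4), with a log2 fold change of 0.01 (edgeR adjusted p = 0.988). At day 14 it was at 311 ± 48.7 CPM in sham and 722 ± 197 CPM in TBI (SD, n = 4 each) and rose by 1.22 (SE 0.23, adjusted p = 0.00424). Ctsd (1.40), Ctsh (1.30) and Cst3, a cathepsin inhibitor (0.97), rose at day 14 and did not pass at day 1 with all samples in the fit. At day 1, Ctsc rose by 3.32 without sham day 1 replicate 1 (edgeR adjusted p = 0.000248), and Cst3 was at 0.39 instead of -0.43. Cst3 missed the threshold at day 14 with the 3 samples left out (0.95, adjusted p = 0.0650) and by limma-voom (0.98, adjusted p = 0.0637). The difference between the days was not past the threshold for any of the 9 by edgeR, with 4 at an unadjusted p under 0.05, nor by limma-voom, and was for 3 by DESeq2.

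**Figure D5:**
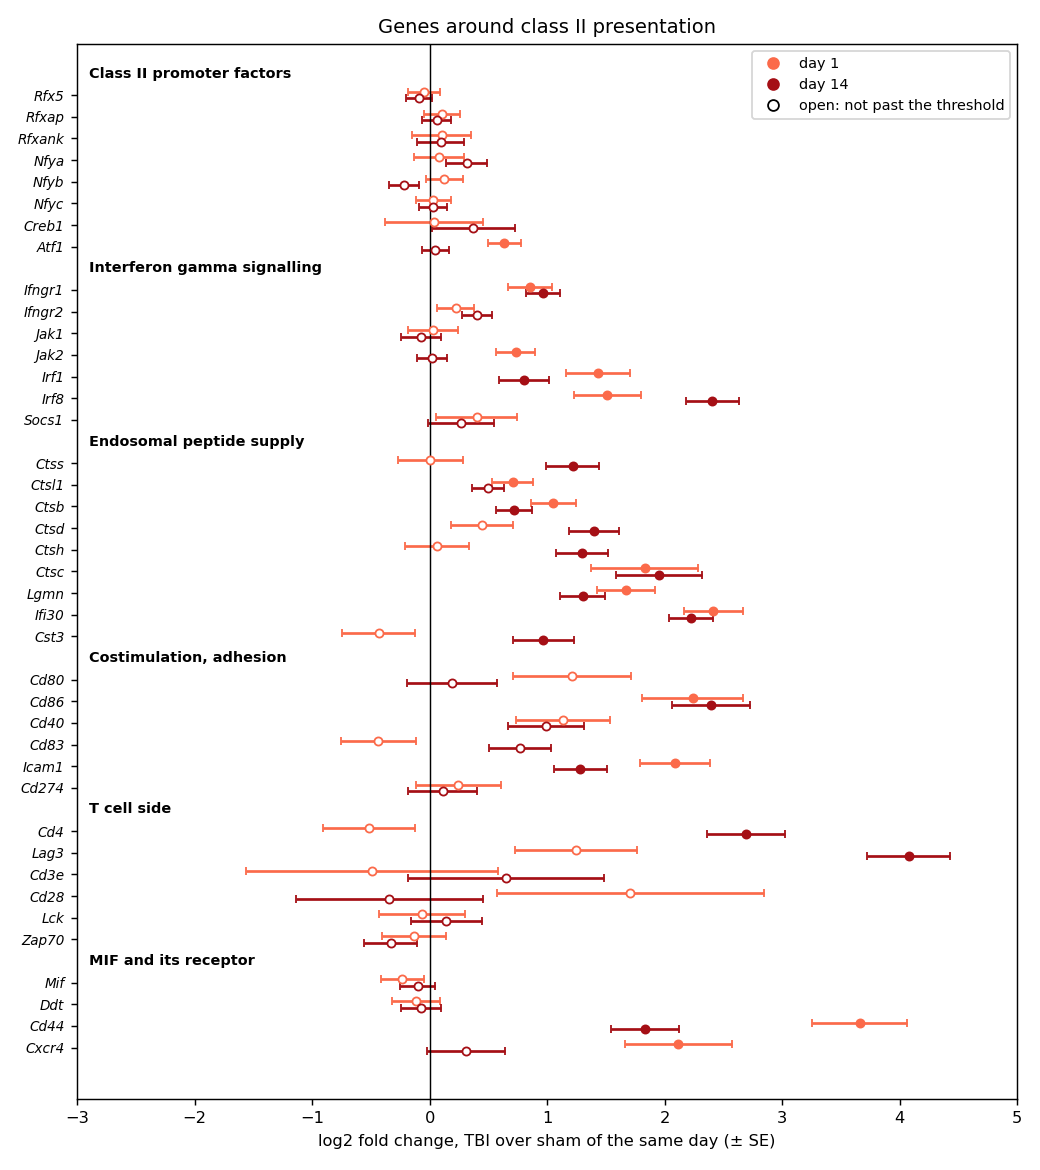
log2 fold change of TBI over sham at day 1 (light) and day 14 (dark) for genes of 6 lists, with the SE as bars; filled points passed the adjusted p threshold of 0.05. Promoter factors other than Atf1 at day 1 have open points, Ctss is at 0.01 and 1.22, and Lag3 reaches 4.08 at day 14.

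Of 6 tested costimulation and adhesion genes, Cd86, a ligand of CD28, rose by 2.24 at day 1 and 2.39 at day 14, and Icam1, the adhesion ligand of T cells, by 2.08 and 1.28. On the T cell side of the synapse, 6 of 10 genes were tested. At day 1, 0 of the 6 passed by edgeR, by limma-voom or by DESeq2, and 1 was higher at an unadjusted p under 0.05. At day 14, Lag3, an inhibitory receptor for class II, rose by 4.08 (SE 0.35, edgeR adjusted p = 9.39e-06) and Cd4, the coreceptor for class II, by 2.69 (SE 0.33, adjusted p = 0.000127). Cd4 had 6.52 ± 0.73 CPM in sham and 42.1 ± 19.2 CPM in TBI at day 14 (SD, n = 4 each), and 4.48 ± 0.89 CPM (SD, n = 4) in TBI at day 1. The T cell receptor genes Cd3d and Cd3g had at most 5 and 6 counts in any sample, and Cd3e was at 0.65 (SE 0.83, adjusted p = 0.865) at day 14. In rats, Cd4 is also known on macrophages and microglia. Cd74 is the receptor for the cytokine MIF as well. Mif was at -0.23 and -0.10 and did not pass, and the coreceptor Cd44 rose by 3.66 and 1.84. Cxcr4 rose by 2.11 at day 1 and was at 0.31 at day 14 (edgeR adjusted p = 0.819). Cxcr4 was also lower in the day 1 shams than in the day 14 shams (-1.47, edgeR adjusted p = 0.0344). Its day 1 rise is thus a rise over a low sham level.

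Markers of the cell types that could hold the class II RNA moved differently on the 2 days, and their part in the class II changes was not tested. Of 10 microglia markers, Aif1 (1.33) and Itgam (2.64) rose at day 1 and Tmem119 fell by 1.90 and P2ry12 by 0.88; at day 14, 8 of 10 rose, among them Trem2 (2.12), Csf1r (1.60) and P2ry12 (1.25). The medians of the 10 were 0.05 and 1.27. Without sham day 1 replicate 1, P2ry12 was at -0.58 at day 1 (edgeR adjusted p = 0.159), and Csf1r rose there (0.84, adjusted p = 0.0443). The summed level of the 10 spanned 395 to 607 CPM in the shams and 576 to 689 CPM in the injured rats at day 1, where the class II members summed to 31.3 to 70.3 and 245 to 436 CPM. At day 14 it spanned 417 to 566 CPM in the shams and 925 to 1580 CPM in the injured rats, beside 26.9 to 56.7 and 623 to 1010 CPM for the members.

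Blood monocyte and neutrophil markers moved at day 1. Of 7 tested, 6 rose at day 1, such as S100a8 (5.31) and Fn1 (2.59), and at day 14 none passed by edgeR, with 1 higher and 1 lower at an unadjusted p under 0.05, 0 by limma-voom and 1 by DESeq2. At day 1, 5 of the 7 rose without sham day 1 replicate 1. Their sum was 929.7 to 1188 CPM in TBI day 1 and 285 to 411 CPM in TBI day 14, against 209.8 to 301 and 241 to 318 CPM in the shams. Of 6 border macrophage markers, 4 were higher at day 1 (Mrc1, Cd163, Lyve1 and Folr2), and at day 14 none passed by edgeR, limma-voom or DESeq2, with 1 higher at an unadjusted p under 0.05. At day 1, 5 of the 6 rose without sham day 1 replicate 1. Their sum was 45.3 to 73.8 CPM in TBI day 1 and 7.63 to 19.0 CPM in TBI day 14, against 8.48 to 16.1 and 6.67 to 10.5 CPM in the shams.

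For professional presenting cells, Batf3 was the only 1 of 5 tested dendritic cell markers to rise, by 3.55 at day 1 and 3.12 at day 14, and Flt3 was at 0.23 and -0.23. All 3 sham counts of Batf3 at day 1 were in replicate 1, without which Batf3 still passed (adjusted p = 0.00197 by edgeR), and 1 other of the 5 was called lower at day 1. Of the B cell list, Cd22 rose by 2.08 and 3.55, and Ms4a1 had at most 5 counts in a sample. Of 3 tested T cell markers, Cd2 (5.31) and Cd8a (4.40) rose at day 1, Cd2 against 3 and 0 counts in the shams. The T cell receptor gene Cd3e did not rise at day 1 (-0.49, edgeR adjusted p = 0.781). That value rested on 1 library, as Cd3e was at 4.39 without sham day 1 replicate 1. Cd3d, Cd3g, Cd5 and Trat1 had at most 10 counts in a sample and were not tested. At day 14 none of the tested T cell markers passed by edgeR or limma-voom, with 1 higher at an unadjusted p under 0.05 and 1 by DESeq2. Of 14 tested choroid plexus markers, 12 were lower at day 1, and 1 was with sham day 1 replicate 1 left out. At day 14 the median of the 14 was 4.61, in the same direction as the class II genes: Ttr passed by edgeR (7.73, adjusted p = 0.0487), 12 were higher at an unadjusted p under 0.05, and 10 passed by DESeq2 or without sham day 1 replicate 1, 0 by limma-voom, and 0 with the 3 samples left out, where the 5 class II genes called at day 14 still passed. Of 5 endothelial markers, Pecam1 rose at day 1 (1.14), and of 6 meningeal markers 0 passed on either day by edgeR, limma-voom or DESeq2, with 1 lower at day 1 and 1 higher at day 14 at an unadjusted p under 0.05. At day 1, 2 endothelial markers and 1 meningeal marker rose without sham day 1 replicate 1; limma-voom and DESeq2 also called 2 endothelial markers higher there.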

How the data were processed

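Per the labels and the study's methods, the authors made stranded mRNA libraries, aligned the reads to the rat genome (rn5) with STAR 2.4.2a and counted them per gene with featureCounts 1.5.0 and UCSC annotation; the deposited values are raw counts. Strand and multi-mapping settings of the counting are not given in the sources used here. Deposited H3K4me3 peak lists were not used here.

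Genes were filtered by edgeR's filterByExpr by group, scaled by TMM and tested with edgeR 4.0.16 (quasi-likelihood, 1 mean per group over all 14 samples, R 4.3.3), with Benjamini-Hochberg adjustment over 12875 genes and a threshold of 0.05. Levels are CPM on TMM-scaled libraries, and log2 CPM uses a prior count of 2. Partner ratios were tested by exact permutation. Alternatives were limma-voom (limma 3.58.1), DESeq2 1.42.0, other scalings, filters and baselines, a replicate block, a choroid plexus covariate, and leaving out each sample. On simulated counts for 12744 genes, the edgeR step recovered 89% of genes changed by 2 on the log2 scale at day 1 and 94% at day 14, and 55% and 73% of genes changed by 1. Changes were planted only in genes above a minimum mean count, with no other difference between the groups. The rates therefore do not cover genes with few counts.

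The members and lists were chosen with earlier results of these data known. All 8 members are named; listed genes are named where called or where they define a cell type, and the 10 and 5 genes most like Cd74 by correlation. Values of some listed genes are not reported here.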

Additional observations from a re-analysis of the deposited data

Results flagged for a closer look

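RT1-Da in TBI day 1 replicate 1 lay apart from the other TBI samples of that day, at a log2 CPM of 5.04, against 5.77, 5.85 and 5.84. The gap to the next sample was 0.894 of the range of the group, above Dixon's 95% critical value for 4 samples. It was the only 1 of 18 combinations of gene and group examined to pass, and chance passes about 1 in 20.

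The effect of TBI on Cd74 differed between the days, by 1.74 on the log2 scale (edgeR adjusted p = 0.0193), and this difference did not pass without sham day 1 replicate 1 (1.25, adjusted p = 0.0844).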

How the results depend on the processing

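The counts of class II members that passed at day 1 (5) and at day 14 (5) stayed between 4 and 6 and between 4 and 5 under all alternatives run, and at 5 with any sample left out; the sham count stayed at 0. The count of partner ratios was 0 by design at day 1, where the smallest p is 0.0667, and for a single pair at day 14, where it is 0.0857 after adjustment. For the difference between the days, the count of 1 went to 0 at an adjusted p under 0.01, with the choroid plexus covariate (Cd74 at 1.35, edgeR adjusted p = 0.124) and with the 3 samples high in choroid plexus markers left out, a choice made after seeing the data, and ranged from 0 to 3 with 1 sample left out. For TBI day 14 against TBI day 1, the count of 4 went to 1 at an adjusted p under 0.01 and ranged from 2 to 4 with 1 sample left out. RT1-Da in that comparison was at 0.64 with the covariate (adjusted p = 0.122). RT1-Bb passed at day 1 with all 6 sham samples as 1 group (5.04, adjusted p = 0.0278).

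Values that changed sign were not past the threshold. For the difference between the days, RT1-Bb was at -0.083 by limma-voom, and with the 3 samples left out RT1-Bb was at -6.46, RT1-Da at -0.35 and RT1-Db1 at -0.24; with 1 sample left out the ranges were -6.73 to 2.27 for RT1-Bb, -0.40 to 1.35 for RT1-Da, -0.22 to 1.75 for RT1-Db1 and -0.96 to 0.026 for Ciita. RT1-Bb in TBI day 14 against TBI day 1 ranged from -1.79 to 0.41. Between the shams, Ciita was at -0.0070 by limma-voom; with the covariate RT1-Ba was at -0.094, Cd74 at -0.015 and Ciita at -0.047; with the 3 samples left out RT1-Ba was at -0.84, RT1-Bb at -5.80, Cd74 at -0.27 and Ciita at -0.47; with 1 left out, RT1-Ba ranged from -0.85 to 0.96, RT1-Bb from -5.80 to 2.90, RT1-Da from -1.26 to 0.49, RT1-Db1 from -1.30 to 0.67, Cd74 from -0.27 to 0.59 and Ciita from -0.48 to 0.51. The RT1-Ba to RT1-Bb ratio at day 1 ranged from -0.26 to 2.64. Fits that leave 1 sham at day 1 assume that it varies like the other groups. The causes were not tested.

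Replicate numbers were shared between groups without pairing the samples: the correlation of deviations of same-numbered samples ran from -0.35 to 0.24, over 0.1 in 5 of 18 pairs. With the replicate block, 5, 5, 1, 4 and 0 members passed, as without it, and RT1-Da and RT1-Db1 between the shams were at 0.11 and 0.10; over all genes, calls went from 2458 to 2646 at day 1 and from 571 to 521 at day 14. Only 6 of 24 best matches were with the own number.

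With 2 sham samples at day 1, leaving out 1 moved the day 1 fold changes of RT1-Ba, RT1-Da and RT1-Db1 by more than 1.5 times, and RT1-Bb from 4.12 to 11.8 at most and 2.77 at least. Cst3 at day 1 turned from -0.43 to 0.39 without sham day 1 replicate 1.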
